A study of Fragaria x ananassa with 3 samples.

Results

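Small RNAs named miR399, miR827 or miR2111 were taken from the deposited table of strawberry fruit small RNAs, together with every degradome row of these families. This gave 6 of 1310 names, of which 3 belong to miR399, 1 to miR827 and 2 to miR2111, and 2 of 152 degradome rows, both of miR2111. The choice used the names alone and no measured value, though earlier results of these data were known when it was made. All 6 are known names, as are 85 of the 1310. Here this means that they match a miRNA of another plant in miRBase, or a strand of its hairpin as for aly-MIR2111a-p5.

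The fruit came from the cultivar Zhangji of Fragaria x ananassa, the cultivated strawberry, and was kept at 20 °C and about 85% relative humidity after harvest. Small RNAs were sequenced in 1 library of fruit after 24 h of storage and 1 library of fruit at 0 h. The labels give no mutation or added agent and differ between the groups in storage time alone. With 1 library each, differences between fruits or library preparations cannot be told apart from storage time. A further library, a degradome, sequenced the cut ends of mRNAs from a mixture of the stored fruit and so has no values by storage time.

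In Arabidopsis, these families are known for the response to phosphate shortage, in which all of them accumulate. There, miR399 targets the mRNA of PHO2, a ubiquitin-conjugating enzyme that limits phosphate uptake and its transport to the shoot, and can itself travel in the phloem. miR827 targets NLA, a ubiquitin ligase that acts on phosphate transporters, while in rice it targets genes of SPX-MFS proteins, phosphate transporters of the vacuole. miR2111 targets mRNAs of F-box kelch-repeat proteins, and in the legume Lotus japonicus a target of this kind, TML, restrains the formation of root nodules.

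The sequences are shown because the seeds, the overlaps between names and the places in the hairpins are read from them. They are written 5′ to 3′ in DNA letters as in the deposited table, with the seed (bases 2 to 8) in capitals. Prefixes name the plant of the matching miRBase entry, apple for mdm, sweet orange for csi and Arabidopsis lyrata for aly.
mdm-miR399i: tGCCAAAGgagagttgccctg
mdm-miR399e: tGCCAAAGgagatttgctcgg
mdm-miR399a_1ss1TA: aGCCAAAGgagaattgccctg
csi-miR827: tTAGATGAccatcaacaaaca
mdm-miR2111a_R-1: tAATCTGCatcctgaggttt
aly-MIR2111a-p5: cGGGTAATctgcatcctgagg

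The 3 miR399 names share the seed GCCAAAG and differ at few places outside it. Positions are counted from 1 at the 5′ end, and the base of the first-named sequence stands first. mdm-miR399e and mdm-miR399i differ by T13G, T18C and G20T, while mdm-miR399a_1ss1TA and mdm-miR399i differ by A1T and A13G. The last part of the name mdm-miR399a_1ss1TA stands for T1A, the substitution that separates it from mdm-miR399a of apple. No other listed name holds this seed. The seed of csi-miR827 occurs in 1 further name, a new candidate. The miR2111 names overlap by 17 bases but start 4 bases apart, so their seeds differ, and each is the sole holder of its seed in the table. Among new candidates, 0 lie within 3 mismatches of any of the 6 names over 17 or more bases.

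The arms were read from the annotated hairpins. The study's precursor annotation places 7 hairpins for the 6 names on the genome of Fragaria vesca, the woodland strawberry, a wild diploid relative. The positions are on its scaffolds, whose build was not at hand as a sequence, so that the genes around them were not analysed here. All 3 miR399 names and csi-miR827 sit on the 3p arm, and both miR2111 names on the 5p arm. This is the arm on which the functional strand lies in these families in Arabidopsis. Folded with RNAfold, the hairpins had free energies between -66.0 and -32.0 kcal/mol, and 18 to 20 bases of each annotated miRNA were paired.

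Of the 4 miR399 hairpins, 3 are annotated close together on scaffold scf0513082. The hairpin of mdm-miR399a_1ss1TA is annotated on the plus strand in the interval scf0513082:809541-809801. Both hairpins of mdm-miR399e are annotated on the minus strand, in the intervals scf0513082:813299-813559 and scf0513082:815567-815827. The first of these hairpins holds G20A relative to the listed mdm-miR399e, and the second holds the listed sequence exactly. The hairpin of mdm-miR399i is annotated in scf0513098:819898-820158 and that of csi-miR827 in scf0513151:657968-658228, both on the minus strand. Each interval given here is longer than its hairpin sequence, which has 137 bases for mdm-miR399i and 81 for csi-miR827.

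The miR2111 hairpins are annotated in the intervals scf0513177:1619547-1619806 (hairpin 1, minus strand) and scf0513173:1930860-1931120 (hairpin 2, plus strand), also longer than the hairpin sequences. Each name has 1 annotated hairpin, but the sequences of both names occur in both hairpins, so that their reads cannot be assigned to one hairpin. Hairpin 2 is printed below with the listed strands in capitals, since it holds 3 listed strands, a stretch of miR2111 on the 5p arm and a new candidate on the 3p arm. The hairpin of mdm-miR399a_1ss1TA likewise holds a new candidate on its 5p arm, and that of csi-miR827 is shown as the precursor of the name with the largest fold of the 6.
miR2111 hairpin 2: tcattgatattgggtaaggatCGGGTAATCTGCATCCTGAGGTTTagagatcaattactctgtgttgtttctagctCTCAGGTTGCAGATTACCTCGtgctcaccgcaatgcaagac
miR399a hairpin: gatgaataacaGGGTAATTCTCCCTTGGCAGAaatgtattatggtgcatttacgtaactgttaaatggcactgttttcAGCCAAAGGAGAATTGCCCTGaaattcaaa
miR827 hairpin: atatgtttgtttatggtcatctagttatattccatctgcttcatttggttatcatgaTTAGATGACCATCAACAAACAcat

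**Figure D1:**
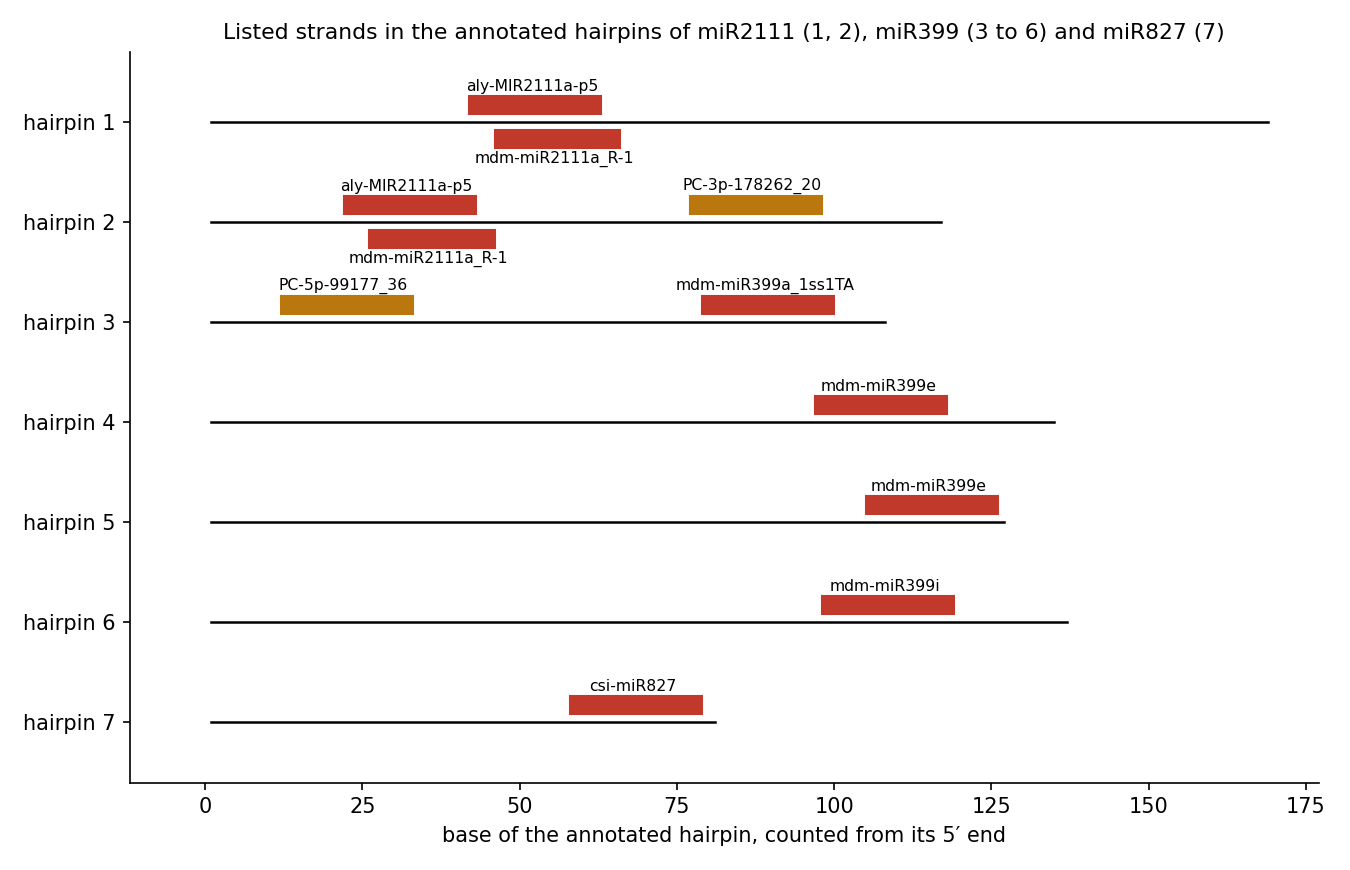
The 7 annotated hairpins are drawn as lines, with the base counted from the 5′ end on the horizontal axis. Red boxes are the listed miR399, miR827 and miR2111 strands and brown boxes are new candidates on the opposite arm. The miR2111 boxes stand on the 5p side of hairpins 1 and 2, starting 4 bases apart, and the miR399 and miR827 boxes on the 3p side. In hairpin 4 the box marks the annotated place, where the hairpin differs from mdm-miR399e by G20A.

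Counts are given as raw reads per library. With 1 library per storage time there was nothing to test across samples, and no value has a replicate error. Brackets hold exact 95% intervals. Those of counts follow the Poisson distribution, those of shares the Clopper-Pearson method and those of folds the conditional binomial. They describe how precisely these libraries were counted, and reads are PCR copies without molecular identifiers, so they are too narrow as a measure of differences between fruits. The listed names together hold 2998588 raw reads at 24 h, against 3006293 at 0 h. In whole fruit, fewer cells of a type and less RNA per cell cannot be told apart.

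The miR399 family was the most abundant of these families and was present at nearly the same level at both times. Its names held 256 raw reads (226 to 289) at 24 h and 231 (202 to 263) at 0 h. Scaled to the same total of listed reads, this was 85.4 CPM at 24 h and 76.8 CPM at 0 h. By reads of both libraries it ranked 19th of 31 known families. The table also holds normalized reads, scaled with a single factor per library. These summed to 216 at 24 h and 212 at 0 h, a fold of 1.02 (0.853 to 1.23).

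Most miR399 reads came from a single name. mdm-miR399i, identical to the apple miRNA, had 206 raw reads (179 to 236) at 24 h and 181 (155.6 to 209) at 0 h. It held 80.5% of miR399 reads (75.1 to 85.1) at 24 h and 78.4% (72.5 to 83.5) at 0 h, shares whose intervals overlap. Its normalized reads were 174 at 24 h and 166 at 0 h, a fold of 1.05 (0.856 to 1.29). Among the 85 known names it ranked 37th by reads, the highest of the 6.

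mdm-miR399e, the name with a pair of hairpins, had 38 raw reads (26.9 to 52.2) at 24 h and 40 (28.6 to 54.5) at 0 h. In normalized reads it had 32 at 24 h and 37 at 0 h, a fold of 0.865 (0.548 to 1.40). It made up 14.8% of miR399 reads at 24 h and 17.3% at 0 h. The fold of mdm-miR399e over that of mdm-miR399i was 0.835 (0.498 to 1.40), so the names of different sequence were not distinguished in their response at this depth. That interval still holds ratios below 1 as well as above it, and does not show that they act alike.

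mdm-miR399a_1ss1TA, the isoform with A in place of T at its first base, was the rarest. It had 12 raw reads (6.20 to 20.96) at 24 h and 10 (4.80 to 18.4) at 0 h, and normalized reads of 10 and 9, a fold of 1.11 (0.439 to 2.86). This interval spans more than 2-fold in each direction, so a change of that size was not detectable at this depth. It contributed 4.69% of miR399 reads at 24 h and 4.33% at 0 h. Its fold over that of mdm-miR399i was 1.05 (0.407 to 2.79).

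csi-miR827, the only miR827 name and identical to the miRNA of sweet orange, differed most between storage times. It had 106 raw reads (86.8 to 128) at 24 h and 41 (29.4 to 55.6) at 0 h, and these intervals do not overlap. Scaled to listed reads, this was 35.4 CPM at 24 h and 13.6 CPM at 0 h. Normalized reads of csi-miR827 were 90 at 24 h and 38 at 0 h, a fold of 2.37 (1.65 to 3.51) and a log2 fold of 1.24. The paper also measured csi-miR827 by quantitative RT-PCR at both storage times and describes the result as close to its sequencing data. The repeats described there are reactions of each sample, so they do not measure differences between fruits. The RT-PCR values were not analysed here.

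**Figure D2:**
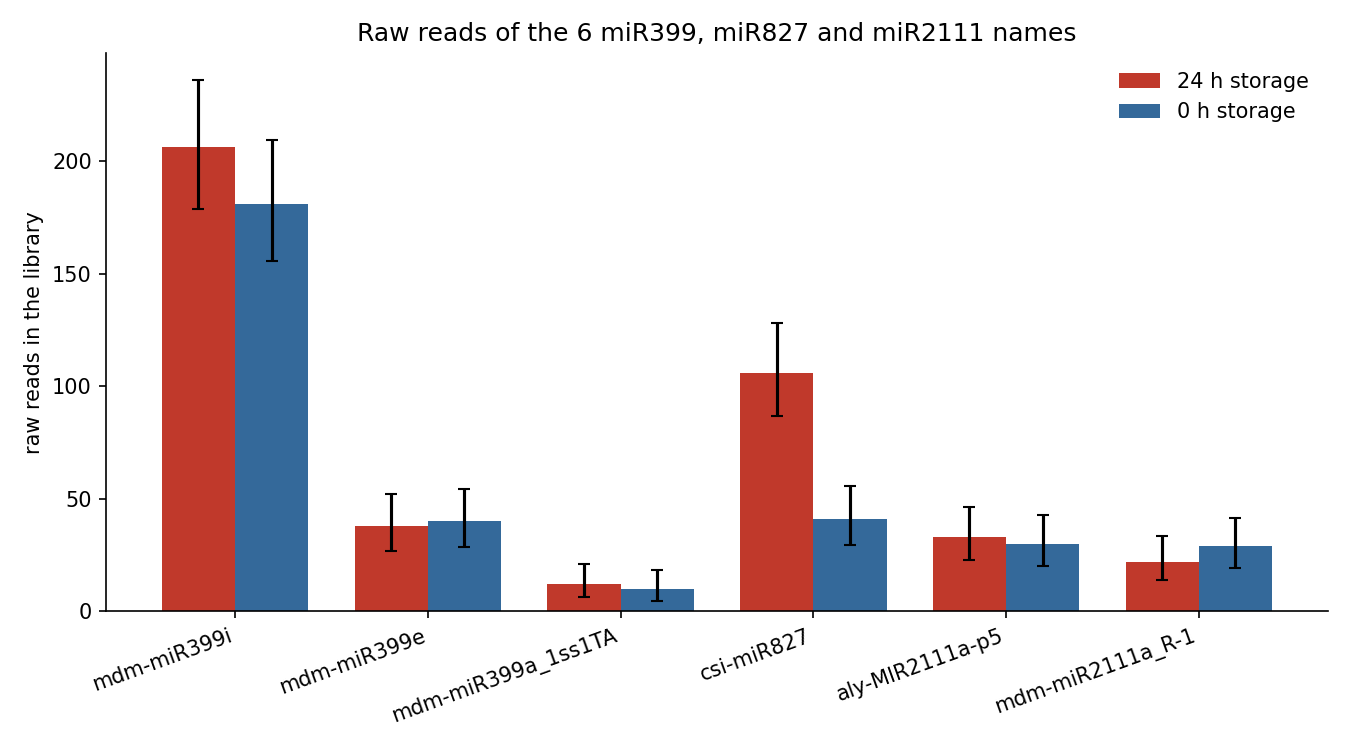
Bars give raw reads in the 24 h library (red, left) and in the 0 h library (blue, right) for each of the 6 names, and error bars are exact 95% Poisson intervals of a single library. mdm-miR399i is the tallest at both times, and csi-miR827 is the name whose bars separate, with 106 reads at 24 h and 41 at 0 h.

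Taking a fold beyond 2 as the threshold, csi-miR827 was 1 of 6 names past it, higher at 24 h, and 0 of 6 were lower by as much. All 6 names passed the minimum of 10 raw reads in at least 1 library. The background was 6.25% of the 1248 names that passed this minimum higher by more than 2-fold, and 3.69% lower. Of the 84 known names that passed, 11.9% were higher and 4.76% lower. A single name gives no ground for a statement on the 6 as a group, and the difference concerns csi-miR827 alone. Its interval excluded 1 but reached below 2-fold. Of the 1248 names, 9.46% had intervals wholly above 1, and 16.7% had intervals that excluded 1 in either direction.

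Within the whole table, 3.77% of the measured names had a higher fold than csi-miR827. By fold it ranked 6th of the 84 known names, and by reads 50th of the 85. The known names nearest to it in log2 fold, a likeness over only these libraries, were mdm-MIR160a-p3_1ss7AG with 92 raw reads at 24 h against 37 at 0 h (fold 2.29, 1.55 to 3.46), csi-miR530a_2ss20TC21GT with 48 against 21 (fold 2.16, 1.24 to 3.71), and mdm-miR395i_R+1 with 40 against 15 (fold 2.62, 1.33 to 4.80). Their intervals all contain the fold of csi-miR827, which follows from choosing them by nearness at these counts. The order among these neighbours is not resolved.

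The miR2111 family was the rarest of these families and did not follow csi-miR827. It summed to 55 raw reads (41.4 to 71.6) at 24 h and 59 (44.9 to 76.1) at 0 h, and ranked 27th of 31 known families. Its normalized reads were 46 at 24 h and 53 at 0 h, a fold of 0.868 (0.585 to 1.26).

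mdm-miR2111a_R-1, 1 base shorter at the 3′ end than its apple match, had 22 raw reads (13.8 to 33.3) at 24 h and 29 (19.4 to 41.6) at 0 h. In normalized reads it had 18 at 24 h and 26 at 0 h, a fold of 0.692 (0.383 to 1.26) and the lowest of the 6. aly-MIR2111a-p5, whose name refers to a strand of the Arabidopsis lyrata hairpin, had 33 raw reads (22.7 to 46.3) at 24 h and 30 (20.2 to 42.8) at 0 h. Its normalized reads were 28 at 24 h and 27 at 0 h, a fold of 1.04 (0.600 to 1.72). The point values lie on either side of 1, but the fold of mdm-miR2111a_R-1 over that of aly-MIR2111a-p5 was 0.690 (0.307 to 1.55). These overlapping names therefore were not distinguished in their folds at this depth. mdm-miR2111a_R-1 held 40.0% of miR2111 reads (27.0 to 54.1) at 24 h and 49.2% (35.9 to 62.5) at 0 h.

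A ratio of folds within the same pair of libraries does not depend on how the libraries are scaled. The fold of csi-miR827 was 2.33 times that of the miR399 sum (1.54 to 3.58) and 2.77 times that of the miR2111 sum (1.61 to 4.80), intervals that exclude 1. The fold of the miR399 sum over that of the miR2111 sum was 1.19 (0.774 to 1.83), an interval that includes 1. Of 9 such ratios computed, these involving csi-miR827 were the only ones with intervals that excluded 1. Summed over the 6 names, the reads came to 417 at 24 h and 331 at 0 h, a fold of 1.16 (1.004 to 1.35), an interval that narrowly excludes 1. This sum includes the 106 reads at 24 h and 41 at 0 h of csi-miR827.

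**Figure D3:**
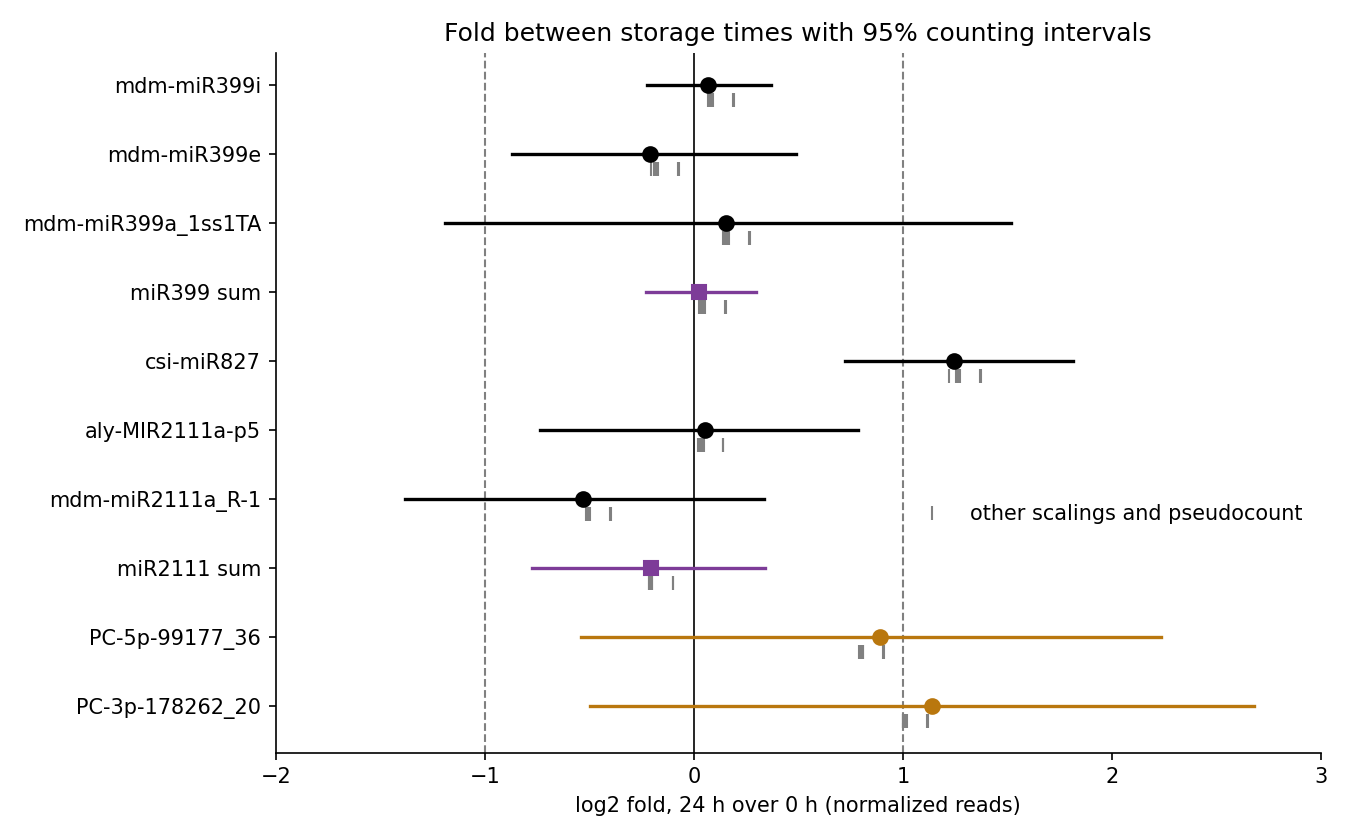
Points are log2 folds of normalized reads, 24 h over 0 h, with lines for 95% counting intervals and dashed lines at 2-fold. Circles are single names (brown for new candidates in the same hairpins), squares are family sums and grey ticks are values under other scalings or a pseudocount of 1. Of the 6 names and the miR399 and miR2111 sums, csi-miR827 is the one whose interval lies wholly on one side of 0.

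**Figure D4:**
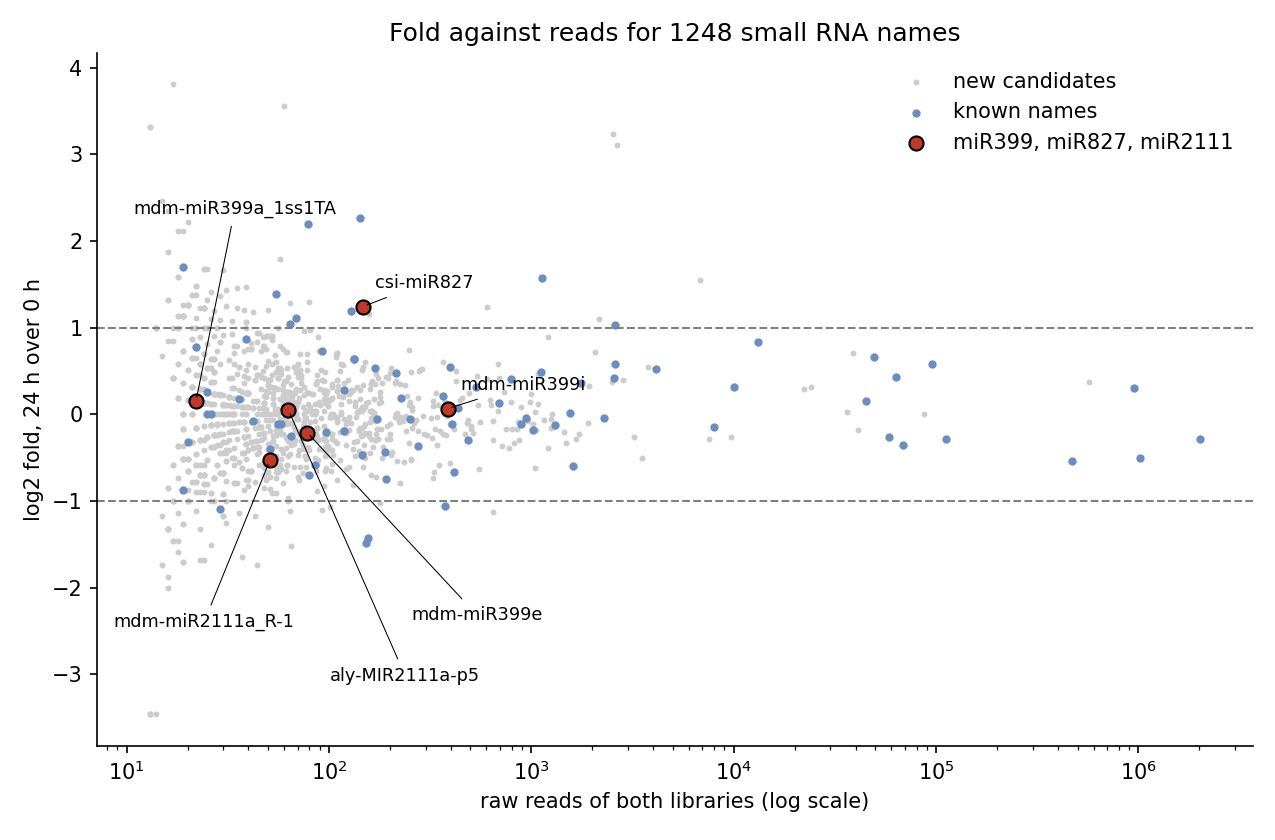
Each point is 1 of 1248 names, with raw reads of both libraries on a log axis and the log2 fold, 24 h over 0 h, on the vertical axis. Dashed lines mark 2-fold. csi-miR827 lies above the upper line at 1.24, and the other named points lie between -0.53 and 0.15, within the spread of names of like abundance.

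The opposite arms were searched for listed sequences, because a miRNA is cut from its hairpin as a duplex whose second strand is usually less stable. The search found 2 new candidates, which are printed with their seeds in capitals.
PC-5p-99177_36: gGGTAATTctcccttggcaga
PC-3p-178262_20: cTCAGGTTgcagattacctcg

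PC-5p-99177_36 lies on the 5p arm opposite mdm-miR399a_1ss1TA. The predicted fold pairs 17 bases between them and leaves 2 bases over at the 3′ end of each strand, the usual shape of a duplex cut by DICER-LIKE enzymes. It had 15 raw reads (8.40 to 24.7) at 24 h and 8 (3.45 to 15.8) at 0 h, a fold of 1.86 (0.689 to 4.71) in normalized reads. At 24 h it made up 55.6% of the reads of the pair (35.3 to 74.5) and at 0 h 44.4% (21.5 to 69.2), so that neither strand of this hairpin could be called the more abundant. The sequence that the authors annotate for this candidate contains the folded hairpin sequence of mdm-miR399a_1ss1TA. Its interval, scf0513082:809474-809734 on the plus strand, overlaps that of mdm-miR399a_1ss1TA without being the same.

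PC-3p-178262_20 lies on the 3p arm of miR2111 hairpin 2. With aly-MIR2111a-p5 it forms 18 pairs and leaves 1 base over at each 3′ end, whereas with mdm-miR2111a_R-1 it forms 15 pairs and leaves 4 bases over at the 3′ end of the 5p strand and 5 at that of the 3p strand. It had 13 raw reads (6.92 to 22.2) at 24 h and 6 (2.20 to 13.1) at 0 h. Its normalized reads were 11 at 24 h and 5 at 0 h, a fold of 2.20 (0.709 to 6.42), which is past the threshold with an interval that includes 1. Of the reads of this candidate and aly-MIR2111a-p5 it held 28.3% (15.99 to 43.5) at 24 h and 16.7% (6.37 to 32.8) at 0 h. Since aly-MIR2111a-p5 may also come from hairpin 1, these shares are not those of hairpin 2 alone.

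The annotation marks a second strand in the hairpins of mdm-miR2111a_R-1 (gcccttgggatgcggattacc) and csi-miR827 (tatgtttgtttatggtcatc). Neither sequence is among the listed names, so no reads can be given for them.

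The degradome was used to ask which mRNAs are cut at sites these miRNAs can pair with. Such cuts fall opposite bases 10 and 11 of the miRNA, and the study's software ranks sites from category 0, where the cut end is the most frequent on its transcript, to category 4, a single read. Of the 6 names, mdm-miR2111a_R-1 alone had rows, beside 38 of all 85 known names. By family this was 1 of 3, beside 19 of all 31 known families. For miR399 and miR827, 0 rows are listed, which says only that no site passed the software's criteria in this library.

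The transcript gene25889-v1.0-hybrid, with no annotated function in the deposited table, carried the better supported site. It pairs with mdm-miR2111a_R-1 over positions 187 to 206, all 20 bases of the miRNA, with an alignment score of 2, where 0 would be a perfect match. The cut is at position 197, opposite base 10. Counted in the same way from the end of the aligned range, with no account of gaps, 91.4% of all rows have their cut there. The site had 11 degradome reads, category 0 and a P of 0.00196 as deposited, not adjusted as far as stated. Category 0 holds 31.6% of the 152 rows. Over its 30 distinct sites, 11 had more reads than this one and 18 had fewer, with a range of 1.5 to 110 and a median of 8. No other small RNA has a row on this transcript. Counted on the overlapping aly-MIR2111a-p5, the same position would fall opposite base 14, and that name has no row.

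The second transcript, gene10579-v1.0-hybrid, also without annotation, had weak support. Its site at position 3947, in an alignment over positions 3937 to 3955, spans 19 bases of the transcript for the 20 bases of mdm-miR2111a_R-1, with a score of 4. The alignment itself was not at hand, so the base of the miRNA opposite this cut is not given. It had 1 degradome read, category 4 and a P of 0.833. Rows with a P under 0.05 make up 32.2% of the table, and gene25889-v1.0-hybrid is among them while gene10579-v1.0-hybrid is not. The candidate PC-5p-99177_36 had 1 row, on gene31311-v1.0-hybrid, with a score of 4, a cut at position 776 opposite base 10, 3 reads, category 2 and a P of 0.304.

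**Figure D5:**
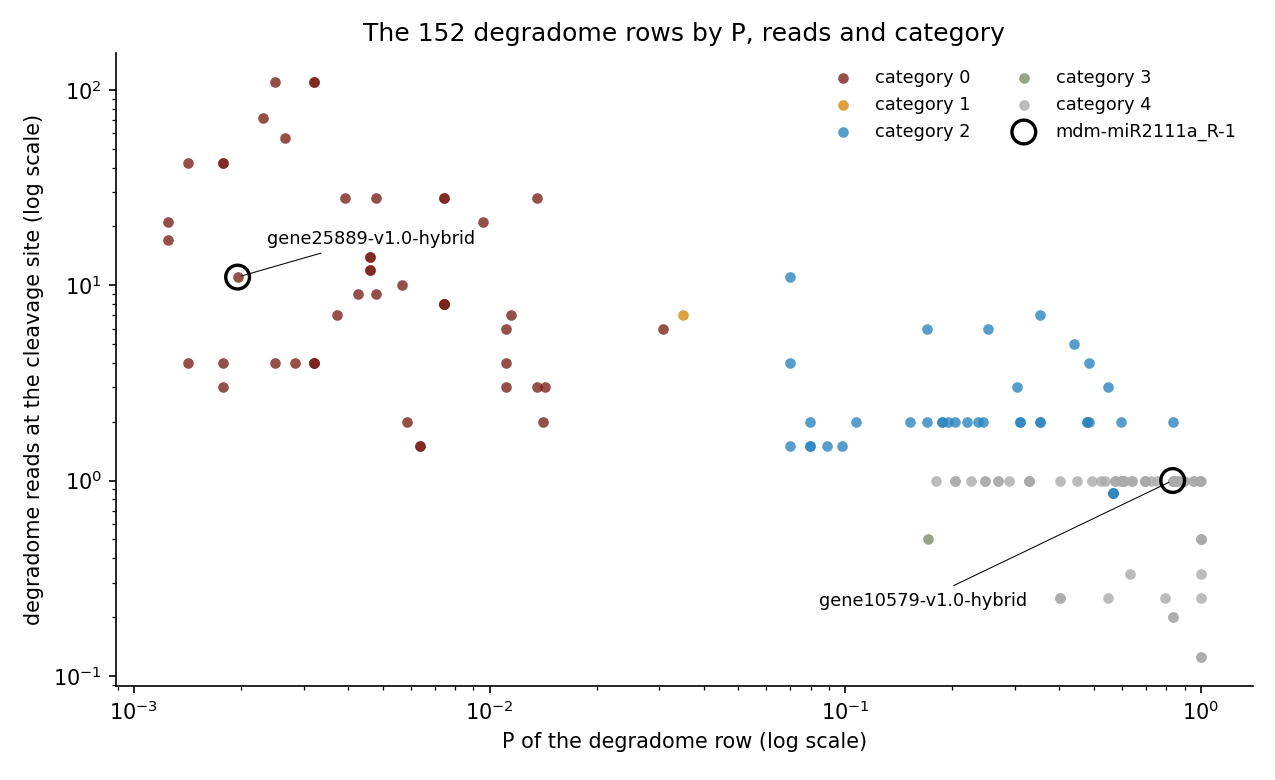
Each of the 152 degradome rows is a point, with its P and its reads at the cleavage site on log axes and colours for the category. Circles mark the rows of mdm-miR2111a_R-1. gene25889-v1.0-hybrid, with 11 reads, lies among the category 0 rows at low P, and gene10579-v1.0-hybrid, with 1 read, among the category 4 rows at the right.

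Other miRNAs that respond to phosphate shortage in Arabidopsis were compared as a list. There, miR156 and miR778 accumulate while miR169, miR395 and miR398 decline. Of these 5 families, 3 are in the table, with 20 names, of which 4 were higher at 24 h, 15 lower and 1 equal in point value. Of these 15, 11 are names of miR156. Over all 1248 measured names, 590 were higher and 604 lower, and over the 84 known names 43 were higher and 39 lower. Of the 20, 3 were past 2-fold, beside 10 higher and 4 lower of the 84 known names. The 3 were all higher and all of miR395, which targets enzymes of sulfate assimilation. mdm-miR395a had 859 raw reads at 24 h against 268 at 0 h (fold 2.97, 2.58 to 3.41), and cme-MIR395a-p5_1ss11GT had 44 against 20 (fold 2.06, 1.17 to 3.64). The 11 names of miR156, which targets SPL transcription factors, were all below 1 in point value and none was past 2-fold. The median log2 fold was -0.30 over the list and 0.06 over the 6 names of miR399, miR827 and miR2111, beside 0 over all 1248 measured names and 0.04 over the 84 known ones. By family it was -0.47 for miR156, -0.11 for miR169 and 1.39 for miR395. The list joins families that rise with families that decline in phosphate shortage, so its median and its counts by direction do not measure a phosphate response.

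For miRNAs of other nutrients, a list of miR397, miR398, miR408, miR857 and miR393 was read, families known in Arabidopsis for copper or nitrate. Of these, 2 families with 4 names are in the table, of which 2 were higher and 2 lower in point value and 0 past 2-fold, with a median log2 fold of 0.07. With 6.25% of all measured names past 2-fold higher and 3.69% lower, 0 of 4 is near the background. The copper-related mdm-miR408b_L-1R+1_1ss8AC had 5727 raw reads at 24 h against 4255 at 0 h (fold 1.24, 1.19 to 1.29). Its interval shows how much more closely a fold is counted at such depth than for the 6 names, whose sums over both libraries run from 22 to 387.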

How the data were processed

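The authors counted the raw reads (counts) of each small RNA with ACGT101-miR 4.2, from reads of 15 to 32 nt mapped to miRBase 19.0 and the Fragaria vesca genome. The deposited normalized reads (whole-number scores) follow the raw reads with a factor of 0.846 for the 24 h library, within 1 read for 1305 of 1310 names, and of 0.917 for the 0 h library, within 1 read for 1307. Their formula was not stated. For each degradome site, the authors used CleaveLand 3.0 and ACGT301-DGE 1.0 to give the alignment score, category, p-value and signal (reads).

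The table has 1431 entries, and each name was counted once. Folds are 24 h over 0 h on normalized reads, for names that reach 10 raw reads in either library, with a threshold of log2 1 and a floor of 3 raw reads for 0. Families follow the number in the name. Hairpin sequences come from the study's supplementary annotation and were folded with RNAfold 2.7.2. Named were all members with their degradome rows, listed names inside their hairpins, the 3 known names nearest in log2 fold to csi-miR827, and list names past 2-fold. mdm-miR408b_L-1R+1_1ss8AC, mdm-miR156a_L+1 and vvi-MIR156a-p3_1ss10TA were named after their values were seen. The members and lists were chosen with earlier results of these data known. Alternatives were raw counts, scaling by mappable or listed reads, TMM (edgeR 4.0.16), DESeq2 1.42.0 size factors, a pseudocount of 1, and other filters. The procedure was tested on simulated data, Poisson counts without differences between fruits or PCR copies. Changed names in it were set well past the threshold, so it says little about folds near 2. Python 3.11.15 with scipy 1.17.1 and R 4.3.3 were used. The reference gene table at hand has other identifiers and was left out.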

Additional observations from a re-analysis of the deposited data

How the results depend on the processing

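Of 121 values under alternatives, 112 stayed within the main value's interval or within 1.5 times the main count. For folds this tally could hardly come out otherwise. The scalings move all folds together, and by less than the counting intervals are wide. csi-miR827 stayed past 2-fold under every scaling and read filter run, with log2 folds from 1.22 to 1.37. Its interval is not wholly beyond 2-fold, and by that rule the count of miR399, miR827 and miR2111 names is 0, as against 9 higher and 0 lower in the whole table. With an interval that excludes 1, 118 names were higher and 90 lower, and with at least 50 raw reads 14 and 7. The miR2111 fold crosses 1 where its most abundant name alone is taken, at a log2 fold of 0.05. Raw reads or scaling by listed reads moved the median of all names to 0.11, and names higher to 73.3% and 75.7% of those past 2-fold, against 62.9%. With the new candidates of the opposite arms added, an alternative chosen after seeing the data, the folds were 1.05 for miR399 and 0.983 for miR2111. The 2 degradome targets became 1 with a P under 0.05 and 1 in category 0. These rules select nearly the same rows, 49 and 48 of 152, and are not separate support. No paired analysis was possible because each storage time has 1 library. Apart from mdm-miR399i, the interval of each of the 6 names spans more than 2-fold from end to end.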
